A study of Homo sapiens with 4 samples.

Results

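The genes described here are 39 interferon-stimulated and RNA-sensing genes, out of 64252 Ensembl gene identifiers counted by RNA sequencing. They were listed by name from what is known of the interferon and double-stranded RNA response. These and the further lists below were chosen with earlier results of these data known. Shares of called genes in them are therefore not independent of the data. All 39 were found in the count table, and 37 had enough reads to be tested. The cells were J.gamma1, a line of T-cell acute lymphoblastic leukemia derived from Jurkat cells and lacking phospholipase C gamma 1. The first group, shELOVL5, held 2 libraries of cells with a short hairpin RNA against ELOVL5, an elongase of polyunsaturated fatty acids. The group it was set against, shNC, held 2 libraries of cells with a control hairpin. Every library therefore came from cells carrying a hairpin, and no hairpin-free cells were analysed here, so a response common to both hairpins cannot be read from this comparison. The hairpin sequences are not used here, and the loss of ELOVL5 and other effects of its hairpin cannot be told apart.

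Cells detect double-stranded RNA in the cytosol with the helicases RIG-I and MDA5, which signal through the mitochondrial adaptor MAVS to switch on interferon genes. Secreted interferon binds its receptor, JAK kinases phosphorylate STAT proteins, and a complex called ISGF3, which holds STAT2 and IRF9, switches on many antiviral genes through a DNA element called ISRE. Many of these antiviral genes encode RNA sensors themselves, and hairpin and small interfering RNAs are known to set the pathway off in some cells.

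The 4 libraries held 16254002 to 17338719 counts each. A count of 0 allows up to 3 counts, or 0.172 to 0.187 CPM (the count scaled to library size by TMM). ELOVL5 had 71.8 and 70.0 CPM in the shELOVL5 libraries, against 342 and 353 CPM in the shNC libraries, 4.90-fold lower (log2 fold change -2.29, SE 0.0486, edgeR adjusted p = 1.79e-09). Of the T cell genes, CD3E was at 502 ± 19.8 CPM in shELOVL5 and 402 ± 2.84 CPM in shNC (SD, n = 2 each), while CD2, the lowest of the 12 listed, was at 2.06 ± 0.0816 CPM in shELOVL5 and 3.20 ± 0.556 CPM in shNC. Of the 12, 4 were higher and 4 lower (33.3% each, where 9.22% of all tested genes were called higher and 11.2% lower). Of the markers of other lineages, MS4A1, PAX5, LYZ, CSF1R, HBB and EPCAM had at most 5 counts in any library, while the B cell gene CD79A had 25.7 ± 1.27 CPM in shELOVL5 and 40.4 ± 4.46 CPM in shNC and fell (adjusted p = 0.00267). The 5 B cell markers reported here summed to 27.0 to 30.1 CPM in shELOVL5 and 40.6 to 47.6 CPM in shNC, and their part in the results was not tested. The summed level of the 8 myeloid and plasmacytoid dendritic cell markers was 1.39 to 1.49 CPM in shELOVL5 and 1.06 to 2.37 CPM in shNC. The 6 epithelial and fibroblast markers summed to 13.2 to 13.9 CPM in shELOVL5 and 12.6 to 13.1 CPM in shNC, most of it from COL1A1, with 132 and 111 counts in shELOVL5 and 96 and 62 counts in shNC, and KRT8, with 66 and 66 counts in shELOVL5 and 89 and 92 counts in shNC. The 5 erythroid markers had at most 10 counts in any library. Whether the replicates came from separate cultures is not labelled, so p-values measure the spread between these libraries, which may be technical. In bulk libraries a change in the share of cells that express a gene and a change in RNA per cell cannot be told apart.

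Of the 37 tested members, 9 were higher in shELOVL5 and 1 was lower (edgeR quasi-likelihood test, Benjamini-Hochberg adjusted p under 0.05 over all genes). The genes that rose were EIF2AK2, ADAR, OAS3, STAT2, IRF1, ISG15, PARP9, PARP14 and IFITM1, and the gene that fell was TRIM25. The members called higher were 24.3% of those tested, where 9.22% of all 17461 tested genes were called higher, and the 1 called lower was 2.70%, where 11.2% of all genes were called lower and 20.4% were called in either direction. None of the 10 reached a 2-fold change, the largest being IFITM1 at 1.57-fold. The median log2 fold change, shELOVL5 over shNC, was 0.19 over the tested members and 0.0062 over all tested genes, and 25 of 37 members had a positive value (67.6%, against 50.8% of all genes). The libraries of both groups did not overlap for 20 members that were higher in shELOVL5 and 8 that were lower, where the shares over all tested genes were 30.0% and 30.1%, or 60.1% in either direction. Against a 1.2-fold change only IRF1, PARP9 and IFITM1 passed as higher, and IRF1 and PARP9 were called higher in every alternative, as was IFITM1 wherever it was fitted as a gene of its own. Without shNC replicate 1, shELOVL5 replicate 1 or shELOVL5 replicate 2, 6 members were called higher in each case, and without shNC replicate 2, 8 were. These included IRF9 without either shELOVL5 replicate, and IFITM2 without shNC replicate 2, neither of them among the 9, so more of the 9 were lost. Leaving out a library leaves its group with 1, which is then assumed to vary like the other group. With no filter on low counts, 5 were called higher, and by DESeq2 8 were, with EIF2AK2 (adjusted p = 0.0831) and OAS3 (0.052) lost and IRF9 gained.

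**Figure D1:**
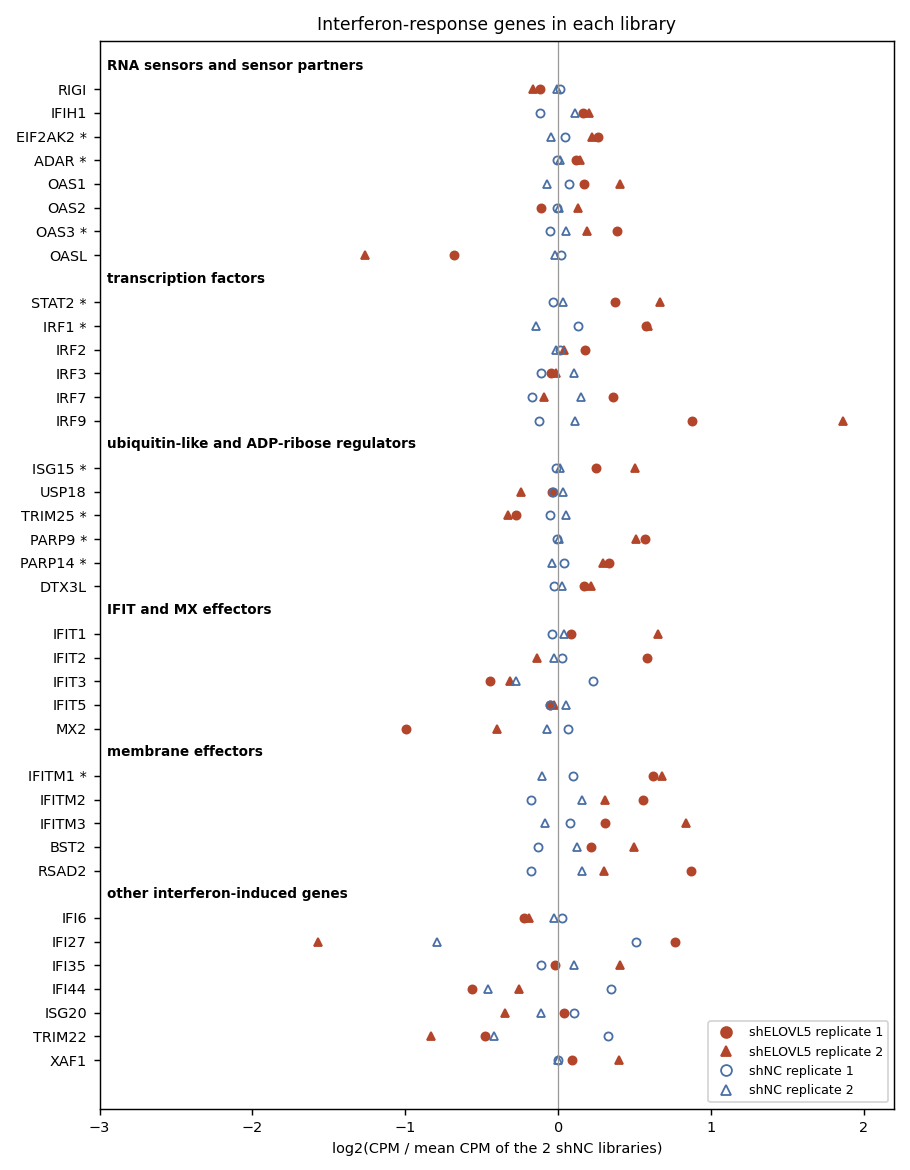
Level of each of the 37 tested members in each library, as log2 of its CPM over the mean CPM of the 2 shNC libraries. Filled red symbols are shELOVL5, open blue symbols are shNC, circles replicate 1 and triangles replicate 2, and an asterisk marks the 10 members past the threshold. IRF9 lies farthest to the right, with its shELOVL5 libraries far apart, and IFI27, OASL and MX2 reach farthest to the left.

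Among the RNA sensors and their partners, 3 of 8 genes rose (37.5%, where 9.22% of all tested genes did) and none fell. EIF2AK2 (ENSG00000055332, GRCh38 chromosome 2, 37099210 to 37157065), which encodes PKR, a kinase that double-stranded RNA activates and that blocks translation, had 1476 and 1355 counts in shELOVL5, against 1237 and 1092 counts in shNC. Both shELOVL5 libraries were above both shNC libraries, at a log2 fold change of 0.24 (SE 0.0707, adjusted p = 0.0355). ADAR (ENSG00000160710, chromosome 1, 154582057 to 154628013), which encodes the enzyme that edits adenosines in double-stranded RNA, had 11198 and 10749 counts in shELOVL5, against 9959 and 9540 counts in shNC. Its difference was small, at 1.09-fold, yet larger than the spread between replicates (log2 fold change 0.13, SE 0.0352, adjusted p = 0.0255). OAS3 (ENSG00000111331, chromosome 12, 112938352 to 112973249) encodes an oligoadenylate synthetase, whose product activates the nuclease RNase L. It had 1478 and 1220 counts in shELOVL5, against 1060 and 1073 counts in shNC (log2 fold change 0.29, SE 0.0844, adjusted p = 0.0322). With no filter on low counts, EIF2AK2 (edgeR adjusted p = 0.0777), ADAR (0.0787) and OAS3 (0.11) did not pass. With robust=FALSE in the edgeR fit, EIF2AK2 (0.0506) and OAS3 (0.0577) did not pass. Each of these 3 calls was lost in 2 or 3 of the fits that left out a library. EIF2AK2 was at 0.19 on the log2 scale without shNC replicate 2 (adjusted p = 0.165), 0.21 without shELOVL5 replicate 1 (0.205) and 0.26 without shELOVL5 replicate 2 (0.119). ADAR stayed between 0.12 and 0.13 on that scale when its call was lost without shNC replicate 1 (adjusted p = 0.0568), shELOVL5 replicate 1 (0.131) or shELOVL5 replicate 2 (0.173). OAS3 was at 0.24 without shNC replicate 1 (adjusted p = 0.119) and at 0.18 without shELOVL5 replicate 1 (0.296).

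The helicase genes and the other OAS genes did not pass. RIGI, the gene of RIG-I, had 333 and 305 counts in shELOVL5, against 354 and 330 counts in shNC (log2 fold change -0.14, adjusted p = 0.508). IFIH1, the gene of MDA5, had 175 and 170 counts in shELOVL5, against 140 and 155 counts in shNC (log2 fold change 0.18, adjusted p = 0.594). OAS1, whose induction by hairpin vectors has been used as a marker of interferon activation, had 169 and 188 counts in shELOVL5, against 153 and 131 counts in shNC. Its groups did not overlap, but the log2 fold change of 0.29 (SE 0.205) did not pass (adjusted p = 0.366). OAS2 was at 0.014 on the same scale, with overlapping groups. OASL, a relative without synthetase activity, had the most negative log2 fold change among the members, -0.93, on 38 and 24 counts in shELOVL5 and 60 and 55 counts in shNC (adjusted p = 0.0906).

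Among the transcription factors, STAT2 and IRF1 rose, and IRF9 did not pass. STAT2 (ENSG00000170581, chromosome 12, 56341597 to 56360155), a subunit of ISGF3, had 954 and 1107 counts in shELOVL5, against 701 and 694 counts in shNC. That was 1.44-fold higher (log2 fold change 0.52, SE 0.107, adjusted p = 0.00622), though it did not pass without shELOVL5 replicate 2 (adjusted p = 0.072). IRF1 (ENSG00000125347, chromosome 5, 132481609 to 132490798), a transcription factor that interferon gamma induces, had 1388 and 1330 counts in shELOVL5, against 994 and 776 counts in shNC. It rose (log2 fold change 0.58, SE 0.0937, adjusted p = 0.00159) and passed with any 1 library left out. Its exons share 1716 bases with those of C5orf56 on the opposite strand, which had 163 and 184 counts in shELOVL5 and 127 and 102 counts in shNC. IRF2, a repressor of interferon genes, IRF3, the factor that RNA sensors activate directly, and IRF7, which amplifies interferon alpha, had log2 fold changes of 0.11, -0.028 and 0.15, with adjusted p of 0.576, 0.85 and 0.757.

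**Figure D2:**
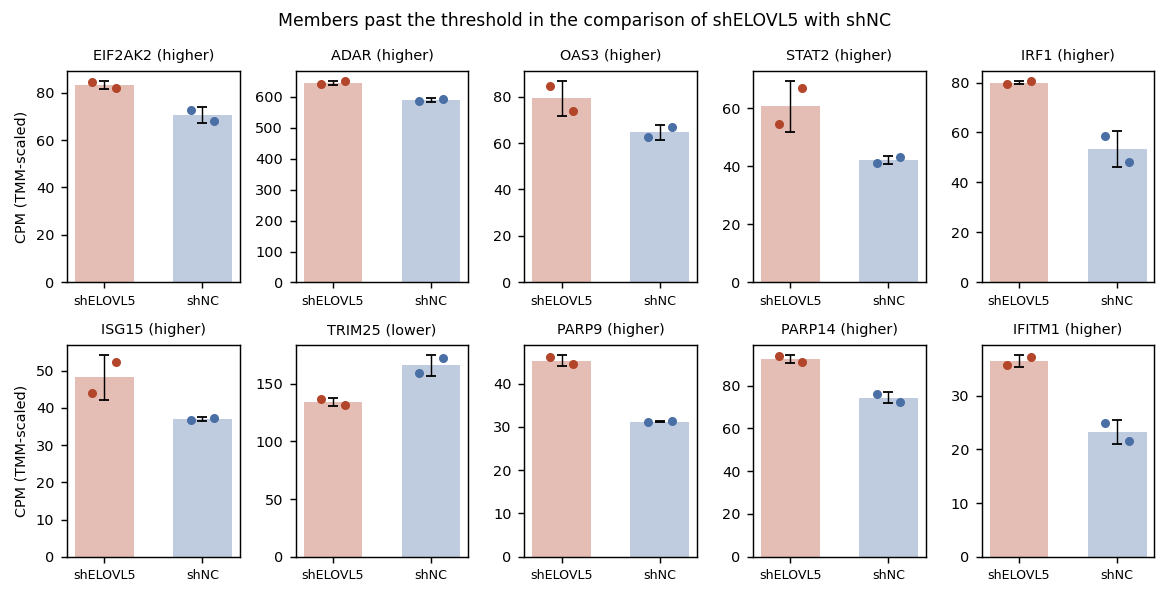
CPM of the 10 members past the threshold, with shELOVL5 left of shNC in each panel. Points are libraries, bars are means and error bars are SD (n = 2 per group), and every axis starts at 0. The groups do not overlap in any panel, and TRIM25 is the panel where shELOVL5 is the lower group, at 134 CPM, against 166 CPM in shNC.

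IRF9 (ENSG00000213928, chromosome 14, 24161053 to 24166565) encodes the DNA-binding subunit of ISGF3. It had 294 and 551 counts in shELOVL5, against 143 and 159 counts in shNC. The shELOVL5 libraries were both higher but far apart, and its log2 fold change of 1.45 (SE 0.371) did not pass (adjusted p = 0.0615). By DESeq2 it passed (adjusted p = 2.44e-05) and by limma-voom it did not (0.197). It passed at 1.86 on the log2 scale without shELOVL5 replicate 1 (adjusted p = 0.000578) and at 0.88 without shELOVL5 replicate 2 (0.0406), but either fit drops the disagreement between those libraries and takes the spread of this gene from shNC alone. A gene model on the same strand, AL136295.5, shares 1838 exon bases with IRF9 and had 760 and 372 counts in shELOVL5 and 513 and 423 counts in shNC. The library with fewer IRF9 counts in shELOVL5 was thus the one with more counts in the overlapping model. When both were summed to 1 row, an alternative chosen after seeing the data, they had 1054 and 923 counts in shELOVL5, against 656 and 582 counts in shNC. The sum passed at a log2 fold change of 0.63 (SE 0.0914, adjusted p = 0.000791), a smaller difference than that of IRF9 alone. Which gene the summed reads came from was not tested.

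**Figure D3:**
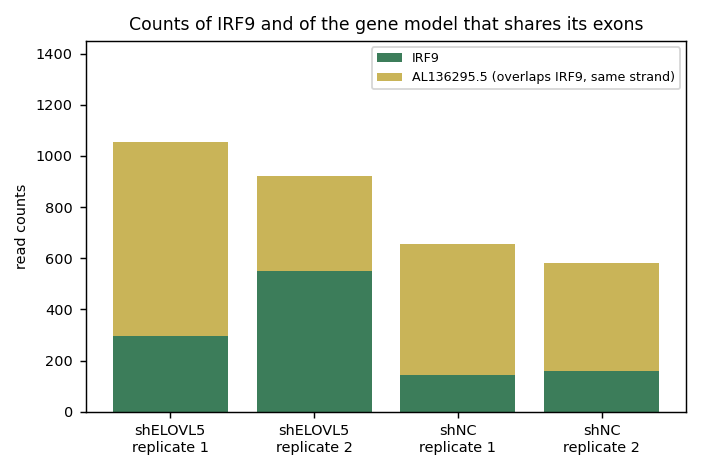
Counts of IRF9 (green) and of AL136295.5, a gene model that shares its exons on the same strand (yellow), stacked for each library. The total is 1054 and 923 counts in shELOVL5, against 656 and 582 counts in shNC, while the green part differs nearly as much between the shELOVL5 libraries as between the groups.

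The regulators that work through ubiquitin-like proteins or ADP-ribose moved in both directions. ISG15 (ENSG00000187608, chromosome 1, 1001138 to 1014540) is a ubiquitin-like protein that is attached to other proteins after interferon. It had 768 and 867 counts in shELOVL5, against 624 and 600 counts in shNC (log2 fold change 0.38, SE 0.106, adjusted p = 0.0288). ISG15 did not pass with no filter on low counts (edgeR adjusted p = 0.0981) or with robust=FALSE in the edgeR fit (0.0523). The call was lost when shNC replicate 1 (adjusted p = 0.086), shNC replicate 2 (0.0757) or shELOVL5 replicate 2 (0.246) was left out. USP18, which removes ISG15 from proteins and restrains the interferon receptor, had 588 and 482 counts in shELOVL5, against 574 and 567 counts in shNC (log2 fold change -0.14, adjusted p = 0.44). TRIM25 (ENSG00000121060, chromosome 17, 56836387 to 56914080), a ubiquitin ligase that acts on RIG-I signalling, had 2389 and 2177 counts in shELOVL5, against 2707 and 2761 counts in shNC. It fell (log2 fold change -0.30, SE 0.0563, adjusted p = 0.00363), and it did so with any 1 library left out.

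PARP9 and DTX3L encode partners of a single complex that modifies proteins with ADP-ribose and ubiquitin, and they are neighbours on opposite strands of chromosome 3 whose exons overlap by 217 bases. PARP9 (ENSG00000138496, 122527924 to 122564577) had 808 and 734 counts in shELOVL5, against 529 and 503 counts in shNC, 1.45-fold higher (log2 fold change 0.54, SE 0.0948, adjusted p = 0.00276). DTX3L had 1524 and 1482 counts in shELOVL5, against 1292 and 1263 counts in shNC. Its groups did not overlap either, but the smaller log2 fold change of 0.19 (SE 0.0655) did not pass (adjusted p = 0.0629), except with scaling to total counts alone (0.0329). PARP14 (ENSG00000173193, chromosome 3, 122680618 to 122730840), a transferase of single ADP-ribose units, had 1638 and 1507 counts in shELOVL5, against 1295 and 1163 counts in shNC (log2 fold change 0.31, SE 0.0663, adjusted p = 0.00752). It did not pass without shELOVL5 replicate 1 (adjusted p = 0.0774).

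The membrane effectors were higher in shELOVL5 in all 5 cases without overlap between the groups, as were 30.0% of all tested genes, but only 1 passed. IFITM1 (ENSG00000185885, chromosome 11, 313506 to 315272), which blocks the entry of enveloped viruses, had 624 and 615 counts in shELOVL5, against 422 and 347 counts in shNC. It rose 1.57-fold (log2 fold change 0.65, SE 0.114, adjusted p = 0.00265). IFITM2, its near copy, had 642 and 512 counts in shELOVL5, against 376 and 449 counts in shNC (log2 fold change 0.44, SE 0.139, adjusted p = 0.0502), and it passed in 5 alternatives, among them limma-voom (0.0461) and leaving out shNC replicate 2 (0.0192). IFITM3 had 77 and 105 counts in shELOVL5, against 64 and 54 counts in shNC (adjusted p = 0.194). Since the sequences of these genes are alike and IFITM1 and IFITM2 share 351 annotated exon bases, their separate values are uncertain, and the 3 were also summed. The sum was 1343 and 1232 counts in shELOVL5, against 862 and 850 counts in shNC (log2 fold change 0.55, SE 0.0761, adjusted p = 0.000642). BST2, the gene of tetherin, which holds budding virions at the cell surface, had 395 and 455 counts in shELOVL5, against 302 and 341 counts in shNC. Its log2 fold change of 0.36 (SE 0.148) did not pass (adjusted p = 0.117). RSAD2, the gene of the antiviral enzyme viperin, had 168 and 107 counts in shELOVL5, against 79 and 94 counts in shNC (log2 fold change 0.62, SE 0.27, adjusted p = 0.142).

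The IFIT, MX and IFI genes, whose transcripts are among the most strongly induced by type I interferon, gave no call. IFIT1, which binds foreign RNA at its 5′ end, had 45 and 63 counts in shELOVL5, against 40 and 40 counts in shNC (log2 fold change 0.40, SE 0.343, adjusted p = 0.477). IFIT3, its partner, had 29 and 30 counts in shELOVL5, against 45 and 30 counts in shNC (log2 fold change -0.38, adjusted p = 0.559). IFIT2 had 141 and 81 counts in shELOVL5, against 93 and 85 counts in shNC, so the groups overlapped. IFIT5, a relative that also binds RNA, was at -0.042 on the log2 scale. MX1, the gene of an antiviral GTPase often used as a marker of interferon exposure, had 0 counts in all 4 libraries. MX2, its relative, had 98 and 140 counts in shELOVL5, against 199 and 171 counts in shNC (log2 fold change -0.67, SE 0.241, adjusted p = 0.078), and it passed as lower without shELOVL5 replicate 2 (0.0478).

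IFI44L had 6 and 8 counts in shELOVL5, against 4 and 0 counts in shNC, too few to test. IFI27 had 16 and 3 counts in shELOVL5, against 13 and 5 counts in shNC, and replicate 1 was the higher library in both groups. IFI6, a mitochondrial protein gene with an anti-apoptotic role, had 697 and 675 counts in shELOVL5, against 807 and 734 counts in shNC (log2 fold change -0.21, SE 0.0899, adjusted p = 0.137). XAF1, a pro-apoptotic gene, had 603 and 705 counts in shELOVL5, against 549 and 519 counts in shNC (log2 fold change 0.25, SE 0.118, adjusted p = 0.164). Its exons share 2535 bases with PRAL on the opposite strand. IFI35, IFI44, the exonuclease gene ISG20 and TRIM22 lay between -0.64 and 0.21 on the log2 scale, with adjusted p of 0.391 to 0.753.

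The members differed widely in level. Per kilobase of merged annotated exons, and as a mean over the 4 libraries, ADAR was the highest at 63.8 CPM per kilobase, followed by IFI6 at 50.3, ISG15 at 45.3 and IFITM1 at 27.6 CPM per kilobase. The tested members had a median level of 4.53 CPM per kilobase, against 5.15 over all tested genes. IFIT1 was at 0.609, IFIT3 at 0.757, OASL at 0.753 and MX2 at 0.698 CPM per kilobase.

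Promoter sequences were searched because members with a shared element could be set beside those that moved. The ISRE core (GAAA, any 2 bases, then GAAA again, on both strands and with overlapping matches counted) was found in 3.57% of 35116 RefSeq promoter windows of GRCh38.p14, each spanning 250 bases before to 50 bases after a gene's start. Of the 29 members with a window, 20 held it (69.0%), against 3.81% of 11151 tested genes with a window. Members were listed as interferon-stimulated or RNA-sensing genes, so a high share was built into that choice and is not a result of these data. The GAS core (TTCNNNGAA, which reads the same on both strands), an element that STAT dimers bind, was in 9 of the 29 members (31.0%) and in 8.30% of the tested genes. The stretches below lie before the RefSeq start, which can differ from the first start annotated in GENCODE, and hold whole matches in capitals. The first 5 are of members that rose, the next 3 are of members with an ISRE core that did not pass, and the last pair shows the GAS core of IRF1 and IRF9.
ISG15, chr1:1013362-1013421, plus strand: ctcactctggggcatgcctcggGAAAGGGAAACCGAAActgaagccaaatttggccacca
IFITM1, chr11:313990-314019, plus strand: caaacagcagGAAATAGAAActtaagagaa
PARP9, chr3:122564322-122564351, minus strand: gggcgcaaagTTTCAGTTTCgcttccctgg
PARP14, chr3:122680800-122680829, plus strand: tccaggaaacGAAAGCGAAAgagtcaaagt
OAS3, chr12:112938444-112938473, plus strand: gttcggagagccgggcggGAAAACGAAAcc
IFIT1, chr10:89392503-89392532, plus strand: ttagTTTCACTTTCcccTTTCGGTTTCcct
IFI6, chr1:27672262-27672321, minus strand: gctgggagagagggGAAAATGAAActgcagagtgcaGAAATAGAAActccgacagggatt
IFI44, chr1:78649729-78649788, plus strand: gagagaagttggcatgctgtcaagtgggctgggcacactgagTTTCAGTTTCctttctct
IRF1, chr5:132490864-132490923, minus strand: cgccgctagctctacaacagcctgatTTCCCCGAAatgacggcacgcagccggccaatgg
IRF9, chr14:24161191-24161220, plus strand: gaccacgtgatTTCTGGGAAaaggccctcc

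Members with and without the ISRE core both moved. Among 18 tested members with an ISRE core in the window, 6 rose and none fell, and the median log2 fold change was 0.27. Among 9 without one, 3 rose (ADAR, STAT2 and IRF1) and TRIM25 fell, with a median of 0.25. ISG15 with its pair of overlapping matches rose, while IFIT1 with a pair of matches (0.40, adjusted p = 0.477) and IFI6 (-0.21, adjusted p = 0.137) did not pass. Over all 425 tested genes with an ISRE core 11.8% were called higher and 9.88% lower. Of 10726 tested genes without one, 10.6% were higher and 13.4% lower. Among 8 tested members with a GAS core, 3 rose (37.5%) and none fell, with a median of 0.34. Among 19 without one, 6 rose (31.6%) and 1 fell, with a median of 0.19. Of all 926 tested genes with a GAS core, 9.61% were higher and 11.6% lower, against 10.7% and 13.4% of 10225 without. A match describes these letters alone, and binding of a factor was not measured. For 21 of the 29 members with a window, bases after its start matched an annotated transcript of the gene in sense. Sequence outside the windows was not searched, so members without a match may hold an ISRE elsewhere.

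**Figure D4:**
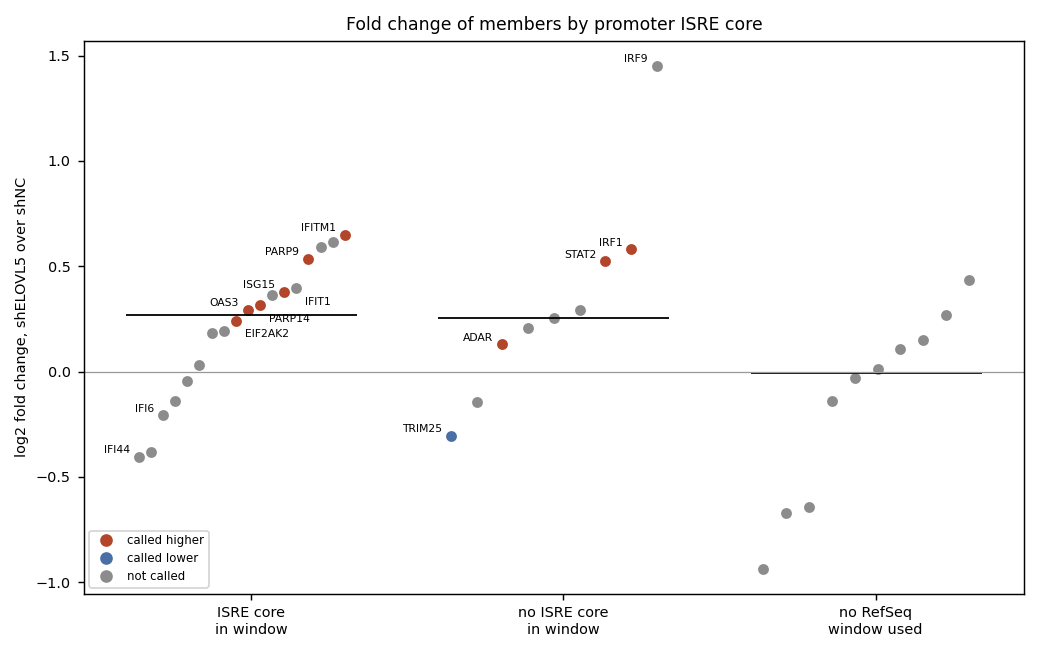
Log2 fold change, shELOVL5 over shNC, of the 37 tested members, split by whether the RefSeq promoter window holds an ISRE core (18 with, 9 without, 10 with no window used). Red points were called higher, the blue point lower, grey points neither, and black lines are medians, at 0.27, 0.25 and -0.0074.

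Interferon genes themselves were nearly silent. Of 21 interferon genes, 18 had 0 counts in every library, among them IFNB1 and all 13 interferon alpha genes listed, which allows up to 0.172 to 0.187 CPM per library. IFNG had 9 and 7 counts in shELOVL5, against 3 and 0 counts in shNC. IFNK and IFNL3 had 2 counts in a single library each. None of the 21 had enough reads for a test.

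The receptor and JAK-STAT genes, listed separately from the members, held 3 of 11 genes that rose (27.3%) and none that fell. Over all tested genes, 9.22% were called higher and 11.2% lower. JAK1, a kinase on interferon receptors, had 3238 and 2862 counts in shELOVL5, against 2223 and 2122 counts in shNC (log2 fold change 0.45, SE 0.0534, adjusted p = 0.000242). The receptor subunit gene IFNAR2 rose by 0.25 on the log2 scale (adjusted p = 0.013) and the importin gene KPNA1, which carries proteins into the nucleus, by 0.31 (0.00686). Neither passed without shELOVL5 replicate 1 (adjusted p = 0.154 and 0.0764). With no low-count filter, the IFNAR2 call was lost (edgeR adjusted p = 0.0532). IL10RB, a receptor subunit for interferon lambda, IFNGR2, a receptor subunit for interferon gamma, STAT3 and TYK2 had adjusted p of 0.102, 0.135, 0.429 and 0.591.

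The adaptors and kinases between sensor and interferon gene held 3 of 24 genes that rose and 3 that fell (12.5% each). These shares were near those over all tested genes, 9.22% higher and 11.2% lower. MAVS had 3425 and 3343 counts in shELOVL5, against 2810 and 2476 counts in shNC (log2 fold change 0.32, SE 0.0518, adjusted p = 0.00172). TBK1, the kinase that phosphorylates IRF3, rose by 0.43 on the log2 scale (adjusted p = 0.0131), and TLR3, the endosomal receptor for double-stranded RNA, by 0.82 (0.0323), at 142 and 131 counts in shELOVL5 and 81 and 69 counts in shNC. MYD88, the adaptor of most other Toll-like receptors, fell to 1372 and 1271 counts in shELOVL5, against 1910 and 1923 counts in shNC (log2 fold change -0.58, SE 0.0624, adjusted p = 0.000122). ZC3HAV1, which encodes the zinc finger antiviral protein, fell by 0.32 on the log2 scale (adjusted p = 0.00137) and the death-domain adaptor gene FADD by 0.27 (0.0211). The TBK1 call was lost when shNC replicate 1 (adjusted p = 0.0726), shELOVL5 replicate 1 (0.0618) or shELOVL5 replicate 2 (0.0966) was left out, and the FADD call in the same 3 cases (0.0636, 0.113 and 0.0912). TRAF2, a ubiquitin ligase, and IRF5 did not pass (adjusted p = 0.0591 and 0.0747). By DESeq2, TLR3 was lost (adjusted p = 0.078). With no low-count filter, TLR3 (edgeR adjusted p = 0.0649) and TBK1 (0.0561) were lost. TLR3 did not pass with any 1 library left out (adjusted p between 0.0694 and 0.152). With 1 library left out, 1 or 2 genes of this list were higher and 2 or 3 lower.

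**Figure D5:**
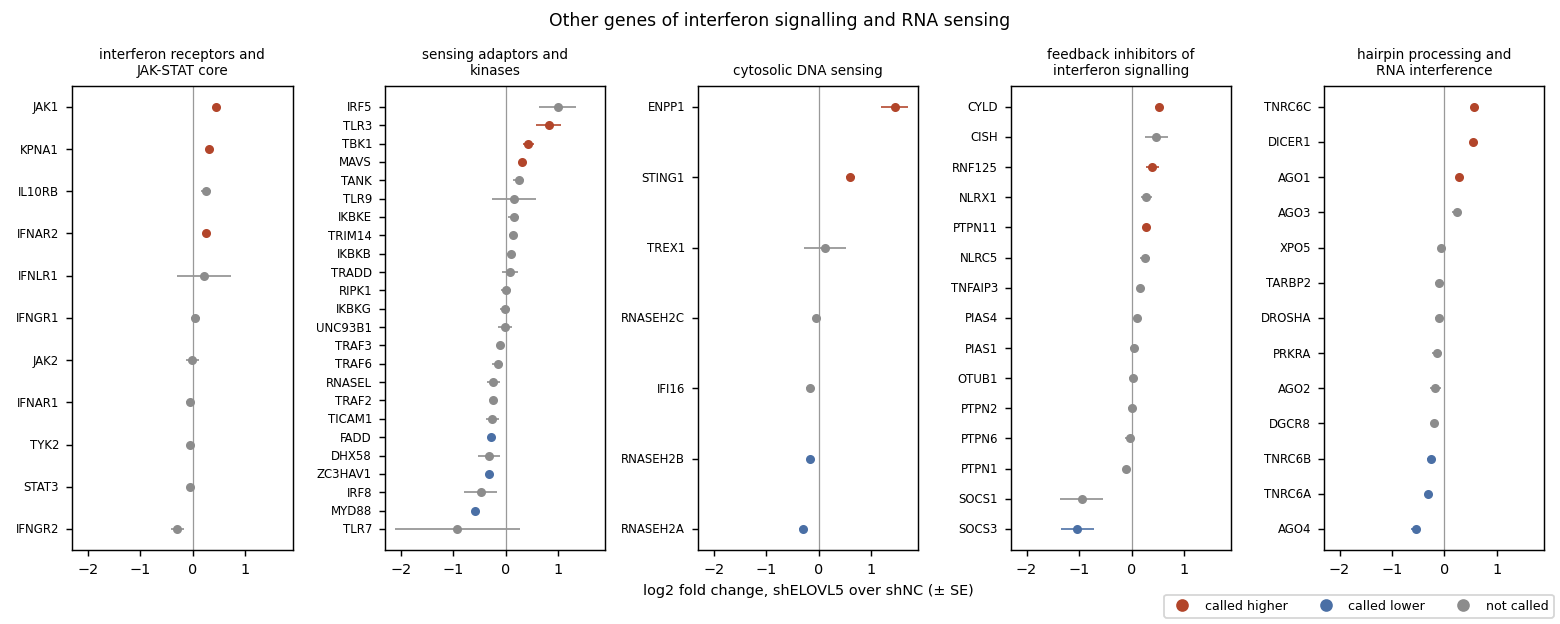
Log2 fold change, shELOVL5 over shNC, of the tested genes in 5 lists of interferon signalling and RNA sensing, with SE as horizontal bars that are often narrower than the point. Red genes were called higher, blue lower, and grey neither. JAK1 (0.45), STING1 (0.60) and CYLD (0.52) lie at or near the top of their lists, and MYD88 (-0.58) and AGO4 (-0.55) at or near the bottom.

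In cytosolic DNA sensing, 2 of 7 tested genes rose and 2 fell (28.6% each), where 9.22% of all tested genes rose and 11.2% fell. STING1, the adaptor that cyclic GMP-AMP activates, had 1285 and 1292 counts in shELOVL5, against 813 and 833 counts in shNC (log2 fold change 0.60, SE 0.0815, adjusted p = 0.000529). ENPP1, which degrades that messenger, had 136 and 121 counts in shELOVL5, against 49 and 42 counts in shNC (log2 fold change 1.45, SE 0.261, adjusted p = 0.00303). CGAS, the enzyme that makes it, had at most 7 counts in any library. The ribonuclease H2 genes RNASEH2A (-0.30, adjusted p = 0.00936) and RNASEH2B (-0.16, adjusted p = 0.0419) fell. RNASEH2A did not pass without shELOVL5 replicate 1 (adjusted p = 0.0788). RNASEH2B did not pass by total counts only (edgeR adjusted p = 0.0988), with robust=FALSE (0.0631), with no low-count filter (0.0974) or by DESeq2 (0.0736). Its call was also lost without shNC replicate 1 (log2 fold change -0.12), shELOVL5 replicate 1 (-0.16) or shELOVL5 replicate 2 (-0.17).

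Among feedback inhibitors, 3 of 15 genes rose and 1 fell (20% and 6.67%), where 9.22% of all tested genes rose and 11.2% fell. CYLD, a deubiquitinase that restrains RIG-I signalling, had 1895 and 1871 counts in shELOVL5, against 1315 and 1243 counts in shNC (log2 fold change 0.52, adjusted p = 0.000228). PTPN11, the gene of the phosphatase SHP2, rose by 0.27 on the log2 scale (adjusted p = 0.00132), and RNF125, a ligase that marks RIG-I for degradation, by 0.40 (0.0447). SOCS3, a suppressor of JAK signalling, had 44 and 30 counts in shELOVL5, against 74 and 73 counts in shNC (log2 fold change -1.03, SE 0.318, adjusted p = 0.0426). Its relative SOCS1 did not pass, at 23 and 18 counts in shELOVL5 and 40 and 37 counts in shNC (adjusted p = 0.134), nor did TNFAIP3 (0.0931), NLRC5 (0.0939) or NLRX1 (0.0961). SOCS3 did not pass with any 1 library left out (adjusted p between 0.0857 and 0.229). The RNF125 call was lost when shNC replicate 2 (adjusted p = 0.233), shELOVL5 replicate 1 (0.163) or shELOVL5 replicate 2 (0.193) was left out. With a replicate block, neither SOCS3 (edgeR adjusted p = 0.055) nor RNF125 (0.0543) passed. Both were also lost with robust=FALSE (0.0525 and 0.0668), with no low-count filter (0.0903 and 0.117) and by DESeq2 (0.125 and 0.0998).

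The genes that process a hairpin into a silencing complex were split, with 3 of 13 higher and 3 lower (23.1% each). Over all tested genes, 9.22% were called higher and 11.2% lower. DICER1, the nuclease that cuts hairpin RNA, had 3857 and 3242 counts in shELOVL5, against 2325 and 2376 counts in shNC (log2 fold change 0.55, SE 0.0655, adjusted p = 0.000329). AGO1 rose by 0.28 on the log2 scale (adjusted p = 0.00466) and TNRC6C, a scaffold of silencing, by 0.56 (7.24e-05). AGO4 fell by 0.55 (adjusted p = 0.00208), and the scaffold genes TNRC6A and TNRC6B fell by 0.31 and 0.26 (0.00529 and 0.0268). AGO2, the slicing Argonaute, had a log2 fold change of -0.18 (adjusted p = 0.301), DROSHA -0.11 (0.271), its partner DGCR8 -0.20 (0.0606) and AGO3 0.23 (0.0898), and none of these passed. AGO1 and TNRC6A did not pass without shELOVL5 replicate 2 (adjusted p = 0.0599 and 0.0527). The TNRC6B call was lost with scaling to total counts alone (edgeR adjusted p = 0.0517) and with no low-count filter (0.0795). It was also lost when shNC replicate 1 (log2 fold change -0.22) or shELOVL5 replicate 1 (-0.20) was left out.

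A wider list of type I interferon-stimulated genes, none of them members, held 7 higher and 6 lower of 39 tested (17.9% and 15.4%). Over all tested genes, 9.22% were called higher and 11.2% lower. Of the 7, 4 encode guanylate-binding proteins, GTPases that interferon gamma induces strongly, of which the list held 5. GBP1 had 1138 and 1141 counts in shELOVL5, against 649 and 595 counts in shNC (log2 fold change 0.83, SE 0.0855, adjusted p = 8.83e-05). GBP2 had 127 and 180 counts in shELOVL5, against 40 and 51 counts in shNC, 3.28-fold higher (log2 fold change 1.71, SE 0.297, adjusted p = 0.00245). GBP3 and GBP5 rose by 0.63 and 0.74 (adjusted p = 0.023 and 0.0314), and GBP4 had at most 21 counts in any library and did not pass. The aminopeptidase gene LAP3 (0.40), NMI (0.43) and TENT5A (0.52) also rose. The genes that fell were TNFSF10 (-1.44), which encodes the death ligand TRAIL, and the Schlafen genes SLFN5 (-0.65) and SLFN11 (-0.41). LGALS9 (-0.40), SHFL (-0.38) and CMTR1 (-0.26) fell as well. With robust=FALSE, NMI (edgeR adjusted p = 0.0559) and GBP5 (0.0577) were lost. With no low-count filter, NMI (0.106), GBP3 (0.078), GBP5 (0.113) and SHFL (0.0843) were lost. Without shELOVL5 replicate 1, 3 genes of this list were higher and 2 lower, without shELOVL5 replicate 2, 4 and 3, and without shNC replicate 2, 5 and 3. GBP1, GBP2, SLFN5 and TNFSF10 passed with any 1 library left out, and each of the other 9 was lost in at least 1 such case.

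Of 14 tested genes of the interferon gamma response, 2 rose and none fell. They were the immunoproteasome gene PSMB10 (0.45, adjusted p = 0.0172) and the death receptor gene FAS (0.33, adjusted p = 0.0388). These were 14.3% of the list, where 9.22% of all tested genes were called higher. Neither passed with any 1 library left out (adjusted p between 0.0505 and 0.139 for PSMB10 and between 0.0668 and 0.196 for FAS). With a replicate block FAS was also lost (edgeR adjusted p = 0.056). The same held with robust=FALSE (0.0532), with no low-count filter (0.0765) and by DESeq2 (0.0978). The antigen processing genes TAPBP, PSMB8 and TAP2 had adjusted p of 0.0944, 0.198 and 0.222. Over all 8 lists of the pathway beyond the members, 23 of 123 tested genes rose and 15 fell, where 9.22% of all tested genes rose and 11.2% fell. CXCL9, CXCL10, CXCL11 and CCL5, chemokine genes that interferons induce, had at most 4 counts in any library.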

How the data were processed

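RNA sequencing counts were analysed for 2 shELOVL5 and 2 shNC libraries, grouped by their titles. Every count column also carries the mark D4, which the column names do not explain. The values deposited by the authors are whole-number counts for each gene. Per the labels' protocols, total RNA was extracted with TRIzol and libraries were made with a TruSeq kit. Per the submitters' processing notes, reads were processed with HISAT2 2.2.0 and StringTie on hg38. Not given in the sources used here are the annotation release, the counting step and whether it used strand, so values of overlapping genes and near copies are uncertain. Coordinates and exon lengths came from GENCODE release 29 (GRCh38) and symbols from a gene name table.

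Genes were kept by filterByExpr (minimum count 10), scaled by TMM and tested with edgeR 4.0.16 (glmQLFit with robust=TRUE, glmQLFTest, two-sided) in R 4.3.3. P-values were adjusted by Benjamini-Hochberg across the 17461 tested genes (threshold 0.05). The SE is the log2 fold change divided by the square root of F. CPM uses TMM-scaled library sizes. The rule named all 39 members, the other list genes past the threshold and up to 4 more per list with the smallest p. CGAS, GBP4, TRIM34, the interferon and chemokine genes and the overlapping gene models were named after their values were seen. Some genes of the lists are not reported here. The members and lists were chosen with earlier results of these data known. The fit was tested on simulated data. Replicates differed more than counting noise allows (chi-square per degree of freedom 5.51 in shELOVL5 and 5.93 in shNC, against 25.3 to 27.6 between groups). The limit given for a count of 0 covers counting error only.

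The alternatives were RLE factors, total counts only, no low-count filter, 1 CPM in 2 libraries, DESeq2 1.42.0, limma-voom (limma 3.58.1), robust=FALSE, a replicate block, glmTreat at 1.2-fold, the IFITM genes summed, IRF9 summed with its overlapping model (chosen after seeing the data), and each library left out.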

Additional observations from a re-analysis of the deposited data

How the results depend on the processing

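With total counts only, the median log2 fold change of the members was 0.23. With no low-count filter, 899 genes and 5 members were higher. With robust=FALSE, 1342 genes and 7 members were higher, IRF9 among them (edgeR adjusted p = 0.0195). Against a 1.2-fold change, 408 genes were higher and 641 lower, with 3 members higher and 0 lower. With each library left out, 696 to 1347 genes were higher and 1176 to 1616 lower, 6 to 8 members higher and 1 to 2 lower, with a member median of 0.17 to 0.22. The members higher in those fits included IRF9 without either shELOVL5 replicate, and IFITM2 without shNC replicate 2. ELOVL5 fell in every alternative. The replicate numbers pair nothing by the labels, and the difference of replicate 1 from replicate 2 correlated at 0.00601 between the groups over 10738 genes. With a replicate block, 1551 genes were higher and 1902 lower, and 10 members higher (IRF9 added, adjusted p = 0.00145) and 1 lower. Members whose direction turned were not past the threshold in any fit. IRF3 was at 0.0069 by total counts only, and IFI27 at -0.21 by limma-voom and -0.10 with the replicate block. With a library left out, the log2 fold changes ranged from -0.14 to 0.0755 for IRF3, -1.54 to 0.81 for IFI27, -0.10 to 0.36 for IRF7, -0.76 to 0.053 for IFI44, -0.10 to 0.0017 for IFIT5, -0.14 to 0.58 for IFIT2, -0.12 to 0.12 for OAS2, -0.0193 to 0.39 for IFI35 and -0.36 to 0.0395 for ISG20. The causes were not tested. Low counts, at most 63 in any library for IFIT1, IFIT3, OASL, IFI27, IFI35 and TRIM22, limit what could be detected.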

Other observations

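Of 8 tested genes, not members themselves, whose exons overlap a member on the opposite strand, 2 passed the threshold and 6 did not. Over all tested genes, 20.4% passed in either direction, so this count says nothing particular about overlapping genes. BCL2L12, a gene of the BCL2 family whose exons share 734 bases with those of IRF3, had 1222 and 1339 counts in shELOVL5, against 852 and 879 counts in shNC, and rose (edgeR adjusted p = 0.00267), while IRF3 did not pass (adjusted p = 0.85). LIPA, the gene of lysosomal acid lipase, shares 65 exon bases with IFIT2 and had 1339 and 1385 counts in shELOVL5, against 1167 and 915 counts in shNC (edgeR adjusted p = 0.0272). TRIM34 had 224 and 161 counts in shELOVL5, against 200 and 9 counts in shNC, so that shNC replicate 2 stood far below the other 3 libraries for this gene.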
